A study of Homo sapiens with 2 samples.

Results

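Host transcripts are long RNAs whose introns or exons carry the sequences of small RNAs. Small nucleolar RNA (snoRNA) host genes, named SNHG, are transcribed and spliced, and the snoRNAs are trimmed out of the excised introns, after which they guide methylation or pseudouridylation of ribosomal and spliceosomal RNA. The spliced exons often encode no protein, and several of these RNAs are cleared by nonsense-mediated decay when ribosomes engage them. MicroRNA host genes, named MIR...HG, carry hairpins that DROSHA and DGCR8 cut out in the nucleus. In epithelial tumours these loci include the miR-200 and let-7 families, known for restraining the mesenchymal state and growth signalling.

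The genes described here are those whose platform symbol is SNHG and a number or begins with MIR and ends in HG, together with MALAT1, NEAT1, GAS5, H19, MEG3, TUG1, PVT1, HOTAIR, KCNQ1OT1 and DLEU2. Only probe sets annotated to a single gene were read, which gave 55 genes with 114 probe sets, of 19775 genes in all. They were 11 SNHG genes, 36 MIR host genes and 8 of the 10 listed lncRNAs. All 55 are called host transcripts below, as the name of the group. RefSeq places no snoRNA or microRNA gene within MALAT1, TUG1, HOTAIR, KCNQ1OT1, SNHG27, SNHG28 or MIR670HG. NEAT1, H19 and a further group of rule genes, 28 in all, were represented only by probe sets that list several symbols, and no gene is named from those. The samples were AsPC-1 cells, an established line of human pancreatic ductal adenocarcinoma, transfected with PGR siRNA or with a control siRNA, and 1 array was deposited for each condition. PGR encodes the progesterone receptor, and which of the study's PGR siRNA duplexes was used for the array is not stated in the labels. The medium is DMEM in the sample labels and another one in the methods.

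Values are deposited intensities, and differences are log2(intensity + 1) on the array labelled PGR siRNA minus that on the array labelled control. Where a gene had several probe sets, the one of highest mean log2 signal stood for it. A gene was counted where its higher value reached the signal floor of 97.9, the median over every probe set that carries a gene name. With a single array per condition there is no spread between replicates, so no difference below has a test, and 1.5-fold (0.58 on the log2 scale) serves as a rule of size. Less RNA per cell and fewer cells of a kind cannot be told apart in such bulk RNA. The brighter PGR probe set read 73.3 on the array labelled PGR siRNA and 16.1 on the array labelled control, and its other probe set read 4.80 and 1.53. All were below the floor, where values have no usable order, so PGR does not check the labels and every direction rests on them. All 9 markers of ductal epithelium and pancreatic carcinoma reached the floor, with summed intensities of 122672 on the array labelled PGR siRNA and 117876 on the array labelled control. The sums over 5 fibroblast markers were 480 and 495, over 3 leukocyte markers 157 and 232, over 3 endothelial markers 119 and 197, and over 2 acinar markers 34.2 and 17.6, in the same order of arrays. The markers of other cells that reached the floor were COL1A1 and DCN of fibroblasts, CD14 of leukocytes and PECAM1 of endothelium. PTPRC, which defines leukocytes, and the acinar markers CPA1 and CELA3A were below it on both arrays. The part of these markers in the differences below was not tested.

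The transcription start of the SNHG genes and the small RNAs inside the MIR host genes are shown first, to place each host beside the small RNAs it carries and the way it starts. According to RefSeq (GRCh38.p14), the SNHG genes that reached the floor carry snoRNA genes in 5 of 6 cases. SNHG17 holds SNORA71A, SNORA71B, SNORA71C and SNORA71D, SNHG18 holds SNORD123, SNHG19 holds SNORD60, SNHG32 holds SNORD48 and SNORD52, and SNHG33 holds SNORA63D and SNORA63E, whereas no snoRNA gene lies within SNHG28. Many genes of the translation apparatus and snoRNA hosts begin transcription in a 5′ terminal oligopyrimidine tract. The stretches below run 30 bases to either side of the annotated start, 5′ to 3′ on the gene's strand, and capitals mark the unbroken run of C and T that starts at the first transcribed base.
SNHG32 (GRCh38.p14, chr6:31834886-31834945, plus strand): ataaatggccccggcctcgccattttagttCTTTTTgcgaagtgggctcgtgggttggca
SNHG19 (chr16:2155329-2155388, minus strand): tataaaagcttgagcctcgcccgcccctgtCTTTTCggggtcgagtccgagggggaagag
SNHG18 (chr5:9546170-9546229, plus strand): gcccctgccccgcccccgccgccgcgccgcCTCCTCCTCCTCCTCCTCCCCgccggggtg
SNHG17 (chr20:38435299-38435358, minus strand): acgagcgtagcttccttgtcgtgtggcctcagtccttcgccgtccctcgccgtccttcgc
SNHG33 (chr3:183447578-183447637, plus strand): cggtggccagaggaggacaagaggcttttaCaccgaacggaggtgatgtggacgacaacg
A start of C followed by at least 4 further pyrimidines, read on the gene's strand only, was present in 3 of the 6 SNHG genes past the floor, in 0 of 10 MIR host genes and in 0 of 4 listed lncRNAs with a promoter in the table. It was present in 10 of 18 protein-coding snoRNA host genes and in 4.07% of 35116 promoters of the same length. The tract of SNHG18 lies in a CTC repeat, and annotated starts may differ from those used in AsPC-1 cells. The E-box CACGTG, searched on both strands, lay in the promoters of DLEU2 and TUG1 and in no other promoter of this group, against 7.26% of all promoters. The palindromic consensus element of steroid receptors, with any 3 bases between its arms and searched in the same way, lay in 0 of these 20 promoters and in 1 of 35116.

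All 6 SNHG genes that reached the floor were higher on the array labelled PGR siRNA, by 0.16 to 0.52 on the log2 scale with a median of 0.31, and none passed 1.5-fold. Over all 11614 genes past the floor 53.2% were higher and the median was 0.02. SNHG32 read 10906 on the array labelled PGR siRNA and 8709 on the array labelled control, a log2 difference of 0.32 or 1.25-fold. SNHG17 read 2124 on the array labelled PGR siRNA and 1730 on the array labelled control (0.30), and its other probe set gave 0.07. SNHG19 read 3221 on the array labelled PGR siRNA and 2760 on the array labelled control (0.22). These 3 values were positive and small, and the SD of the differences of the 1000 genes nearest in signal was 0.16 for SNHG32, 0.21 for SNHG17 and 0.19 for SNHG19. The probe sets that gave these 3 values bear a mark of possible cross-hybridisation. Without marked probe sets 4 SNHG genes remained past the floor, all higher, with a median of 0.26. SNHG33 read 2239 on the array labelled PGR siRNA and 2003 on the array labelled control (0.16), with another probe set at 0.49. The dimmer members were SNHG18, with 289 on the array labelled PGR siRNA and 224 on the array labelled control (0.37), and SNHG28, with 148 and 103 in the same order (0.52). For SNHG18, SNHG28 and SNHG33 the SD among genes of like signal was 0.37, 0.53 and 0.20, at or above the difference itself. The genes with an oligopyrimidine start, at 0.22, 0.32 and 0.37, lay among the others, at 0.16, 0.30 and 0.52.

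**Figure D1:**
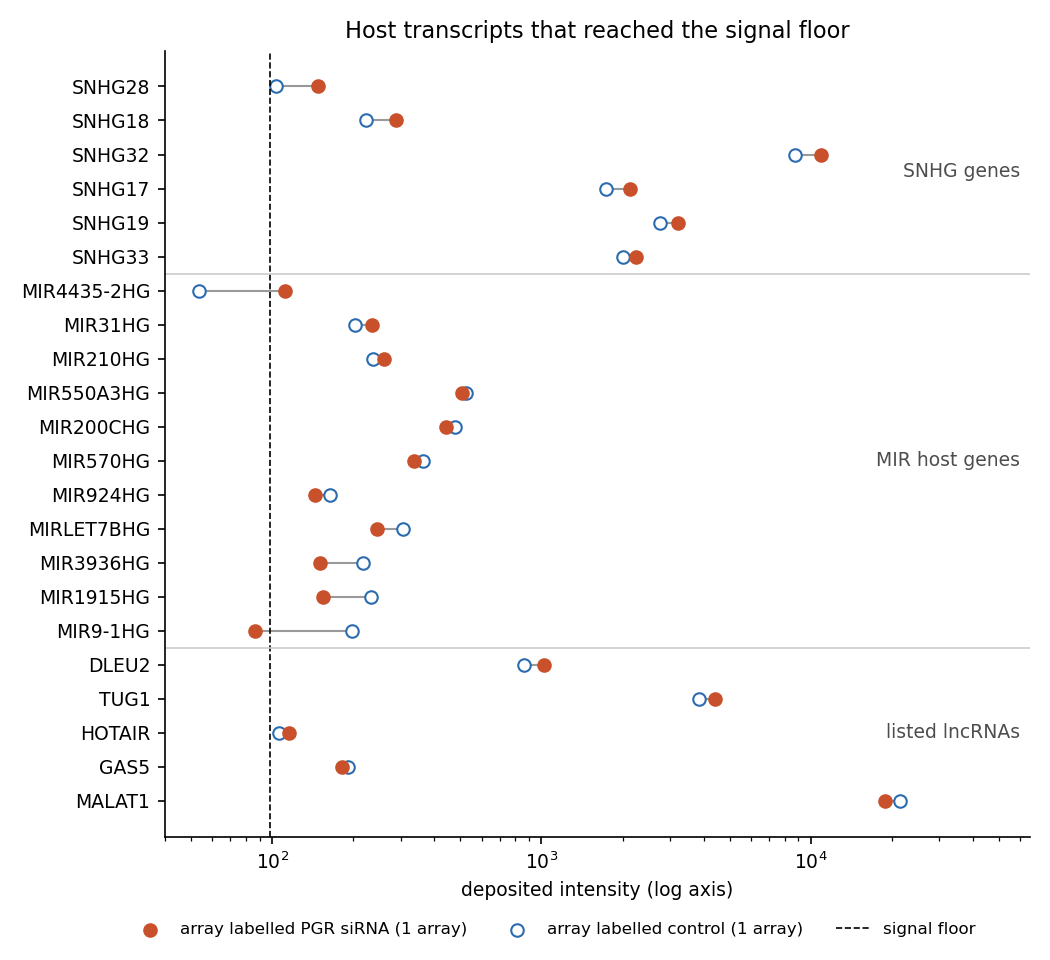
Deposited intensity (log axis) of the 22 host transcripts that reached the signal floor, with filled points for the array labelled PGR siRNA, open points for the array labelled control, 1 array each, and the floor of 97.9 as a dashed line. The filled point lies to the right in all 6 SNHG genes and in 3 of 11 MIR host genes.

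Probe sets that list a host together with the small RNAs it carries were examined as a group, a choice made after the data were seen and with no gene named from them. Of 81 shared probe sets, 26 listed snoRNA or scaRNA genes, and 23 of these reached the floor. Of those, 22 were higher and 1 was lower on the array labelled PGR siRNA, where 50.8% of named probe sets were higher, with a median of 0.23 and a range from -0.05 to 1.04. In the 15 of them with both values of at least 1000, every difference was positive, from 0.09 to 0.35. Shared probe sets that listed microRNA genes only had a median of 0.09 over the 19 past the floor, with 11 higher and 8 lower. These counts are of probe sets, and several may read the same host. Most of these shared probe sets thus ran in the direction of the SNHG genes, on the same arrays and so not as an independent measurement. A measure of the arrays themselves moved the same way: all 18 hybridisation controls of bacterial and phage origin were higher on the array labelled PGR siRNA, with a median of 0.21 and a range from 0.03 to 0.51. Among 5443 genes with a mean signal over 1000, 56.2% were higher and the median was 0.03. The part of either in the SNHG values was not tested, and after subtraction of a loess trend with signal the SNHG median was 0.28. The 3′ to 5′ signal ratio of GAPDH was 1.01 on the array labelled PGR siRNA and 0.994 on the array labelled control, and that of ACTB was 1.85 and 1.94.

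Of the remaining SNHG genes, SNHG4 was just below the floor, with 96.6 on the array labelled PGR siRNA and 55.8 on the array labelled control, and SNHG22 read 60.8 and 61.1 in the same order. SNHG10, SNHG24 and SNHG27 were dimmer, and their values have no usable order.

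**Figure D2:**
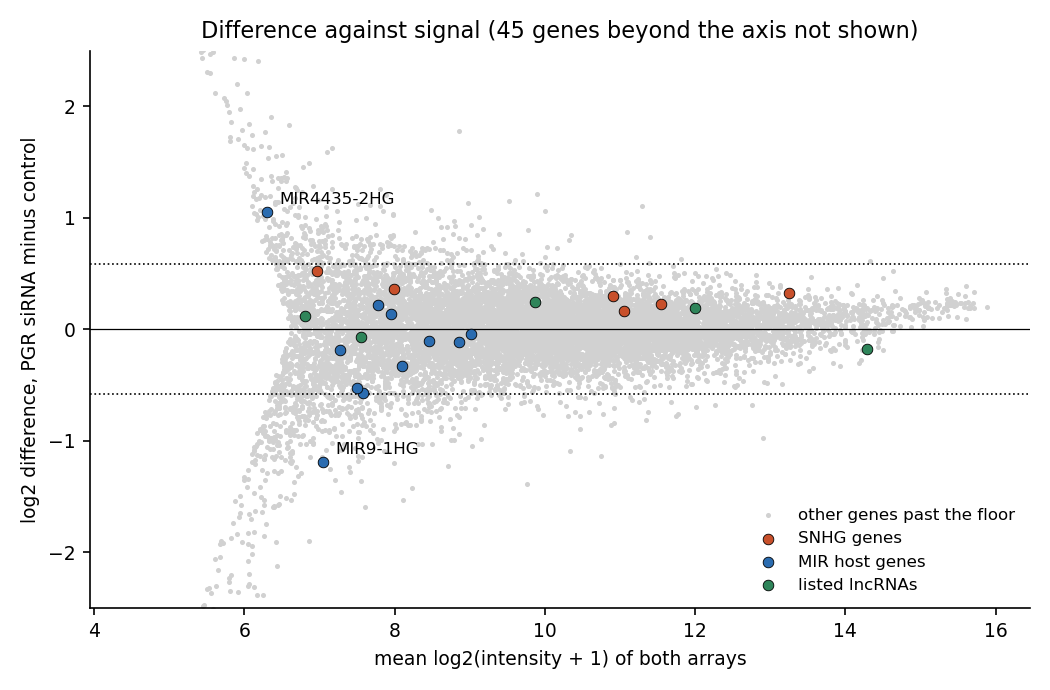
Log2 difference (PGR siRNA label minus control label) against mean log2(intensity + 1), with 1 point per gene past the floor, host transcripts in colour and 1.5-fold as dotted lines. The scatter widens toward low signal, where both host transcripts past 1.5-fold lie, and the SNHG genes lie between 0.16 and 0.52.

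MicroRNA host genes ran in both directions, with 3 higher and 8 lower of the 11 that reached the floor and a median of -0.11, where 46.8% of all genes past the floor were lower. These probe sets read the host RNA, and the small RNAs were not measured on the arrays. According to RefSeq 20 microRNA genes lie within the 11 hosts and DLEU2, with 33 different mature sequences, which share 29 seeds (bases 2 to 8). Those of the better-known families are printed 5′ to 3′ with the seed in capitals, so that the hosts can be grouped by it.
hsa-let-7a-5p (MIRLET7BHG, chr22:46112752-46112773, plus strand): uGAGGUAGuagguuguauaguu
hsa-let-7b-5p (MIRLET7BHG, chr22:46113691-46113712, plus strand): uGAGGUAGuagguugugugguu
hsa-miR-15a-5p (DLEU2, chr13:50049167-50049188, minus strand): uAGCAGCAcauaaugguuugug
hsa-miR-16-5p (DLEU2, chr13:50049027-50049048, minus strand): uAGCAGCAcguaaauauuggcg
hsa-miR-200c-3p (MIR200CHG, chr12:6963742-6963764, plus strand): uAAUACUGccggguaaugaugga
hsa-miR-141-3p (MIR200CHG, chr12:6964155-6964176, plus strand): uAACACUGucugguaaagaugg
hsa-miR-31-5p (MIR31HG, chr9:21512158-21512178, minus strand): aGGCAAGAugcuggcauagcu
hsa-miR-210-3p (MIR210HG, chr11:568112-568133, minus strand): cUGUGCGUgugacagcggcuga
hsa-miR-9-5p (MIR9-1HG, chr1:156420392-156420414, minus strand): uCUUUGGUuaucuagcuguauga
The pairs let-7a and let-7b, and miR-15a and miR-16, each share a seed within 1 host, while miR-200c-3p and miR-141-3p of the same host have different seeds. Of the 29 seeds, 4 occur in more than 1 mature sequence. These counts go by position within the host gene. MIR5583-1 lies on the strand opposite to its host MIR924HG. For MIR570 in MIR570HG it was not settled whether the strand is that of the host.

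MIR200CHG is the host of the miR-200c and miR-141 pair that represses the mesenchymal regulators ZEB1 and ZEB2. It read 444 on the array labelled PGR siRNA and 479 on the array labelled control, a log2 difference of -0.11. Its only single-gene probe set bears a mark of possible cross-hybridisation. The host of let-7b and let-7a, MIRLET7BHG, read 245 on the array labelled PGR siRNA and 307 on the array labelled control (-0.32), with its other probe set at -1.31, where the values were 60.0 and 151. Both probe sets were thus lower, by different amounts, and the mean of them was -0.82. The value of 60.0 was below the floor, and -0.32 was smaller than the SD of 0.36 among genes of like signal. MIR31HG, from the locus of miR-31, read 235 on the array labelled PGR siRNA and 203 on the array labelled control (0.21). MIR210HG, host of miR-210, which hypoxia induces, read 260 on the array labelled PGR siRNA and 236 on the array labelled control (0.14), and its other probe set gave -0.55. The mean of its probe sets was -0.20, so no direction holds for this host.

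Past 1.5-fold there was 1 MIR host gene in each direction, which is 1 higher and 1 lower of all 22 host transcripts, against a background of 3.65% higher and 4.72% lower by that rule over all genes past the floor. MIR4435-2HG, a host whose RNA is best known in myeloid cells, read 112 on the array labelled PGR siRNA and 53.6, below the floor, on the array labelled control. The difference was 1.05, and 0.19 with the control value set to the floor. The SD among genes of like signal was 0.87 there. MIR9-1HG, host of miR-9, a microRNA best known in neural progenitors, read 86.3 on the array labelled PGR siRNA, which is below the floor, and 198 on the array labelled control. Its difference was -1.19, and -1.01 with the lower value set to the floor. Both hosts also passed 2-fold, as did 1.11% of all genes upward and 1.58% downward. For MIR9-1HG the SD among genes of like signal was 0.50, and its 3 other probe sets were below the floor on both arrays. So was the other probe set of MIR4435-2HG. With probe sets averaged MIR9-1HG was -0.49 and MIR4435-2HG was 0.57, each inside 1.5-fold. Just inside 1.5-fold, MIR1915HG read 155 on the array labelled PGR siRNA and 232 on the array labelled control (-0.57), but its other probe sets gave -0.80 and 0.71. MIR3936HG read 150 on the array labelled PGR siRNA and 217 on the array labelled control (-0.53). MIR570HG read 337 on the array labelled PGR siRNA and 363 on the array labelled control (-0.11). MIR550A3HG read 508 on the array labelled PGR siRNA and 523 on the array labelled control (-0.04), and MIR924HG read 144 and 164 in the same order (-0.19). These 3 differences were smaller than the SD among genes of like signal, which was 0.33 for MIR570HG, 0.29 for MIR550A3HG and 0.46 for MIR924HG. The other 25 MIR host genes were below the floor on both arrays by their single-gene probe sets. They were MIR1-1HG, MIR100HG, MIR124-2HG, MIR133A1HG, MIR17HG, MIR181A2HG, MIR2052HG, MIR205HG, MIR34BHG, MIR3663HG, MIR3667HG, MIR3681HG, MIR3945HG, MIR3976HG, MIR4290HG, MIR4300HG, MIR4307HG, MIR4500HG, MIR548XHG, MIR646HG, MIR663AHG, MIR670HG, MIR7-3HG, MIR9-3HG and MIR99AHG.

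**Figure D3:**
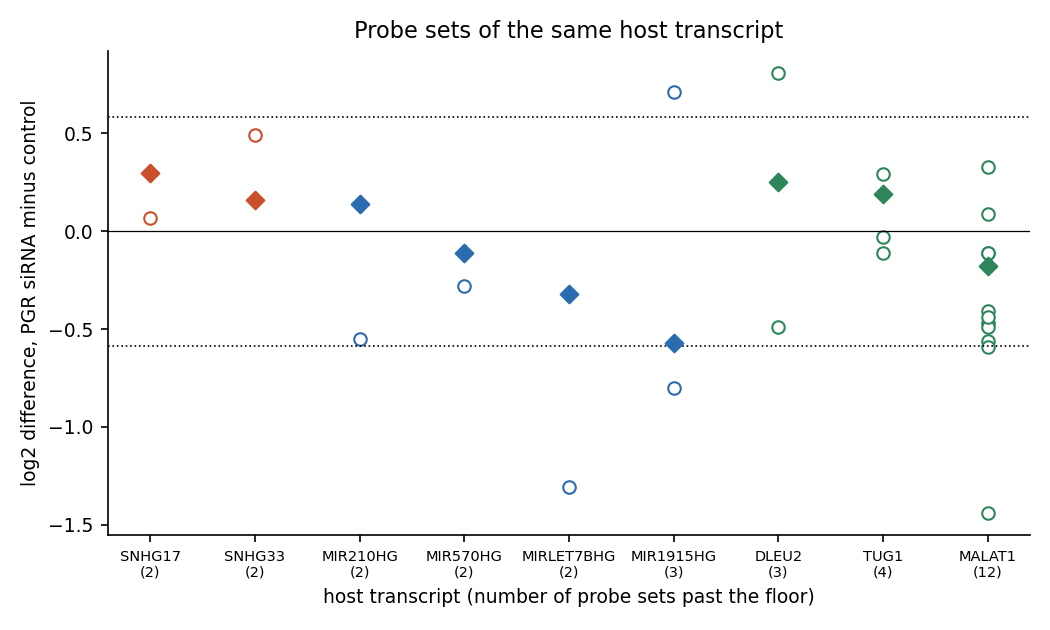
Log2 difference, PGR siRNA label minus control label, for each probe set past the floor, for the 9 host transcripts with more than 1, where diamonds mark the probe set that reads the gene, open circles the others and dotted lines 1.5-fold. MALAT1 spans -1.44 to 0.33, and both probe sets of SNHG17 and of SNHG33 lie above 0.

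Of the listed lncRNAs, 5 of 8 reached the floor and none passed 1.5-fold, with a median of 0.12. MALAT1, a nuclear RNA that gathers in speckles with splicing factors, was read by 12 probe sets, all past the floor on both arrays. In 10 of them it was lower on the array labelled PGR siRNA. The brightest read 18881 on the array labelled PGR siRNA and 21350 on the array labelled control (-0.18). The widest difference was 1874 on the array labelled PGR siRNA against 5093 on the array labelled control (-1.44), and the probe set most opposed to it read 7855 on the array labelled PGR siRNA and 6260 on the array labelled control (0.33). Only 1 MALAT1 probe set bears no mark of possible cross-hybridisation, and it read 454 on the array labelled PGR siRNA and 640 on the array labelled control (-0.49), and the mean of all 12 was -0.37. Probe sets along one RNA on the same pair of arrays are not replicates, and over 5203 genes with several probe sets past the floor on both arrays, the SD within a gene was 0.26.

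TUG1, a transcript first described for a role in the mouse retina, read 4397 on the array labelled PGR siRNA and 3842 on the array labelled control (0.19). Of its 4 probe sets past the floor 2 were higher and 2 lower, from -0.11 to 0.29. DLEU2, host of miR-15a and miR-16-1 in the region often deleted in chronic lymphocytic leukaemia, read 1022 on the array labelled PGR siRNA and 860 on the array labelled control (0.25), with other probe sets at -0.49 and 0.81. GAS5, which carries 11 snoRNA genes and accumulates when cells stop growing, was read by its only single-gene probe set. It read 181 on the array labelled PGR siRNA and 191 on the array labelled control (-0.07). HOTAIR, an RNA of the HOXC cluster, lay close to the floor with 116 on the array labelled PGR siRNA and 106 on the array labelled control (0.12). The probe sets of TUG1 and DLEU2 thus disagreed in sign, and GAS5 and HOTAIR differed by less than the SD of 0.42 and 0.59 among genes of like signal.

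MEG3, KCNQ1OT1 and PVT1 stayed below the floor on both arrays. The imprinted MEG3 had 10 probe sets, and the one that stood for it read 23.2 on the array labelled PGR siRNA and 62.4 on the array labelled control. KCNQ1OT1, an antisense RNA that silences its imprinted neighbours, had 5 probe sets, and the one that stood for it read 64.3 on the array labelled PGR siRNA and 55.9 on the array labelled control. PVT1, the neighbour of MYC, read 16.8 on the array labelled PGR siRNA and 14.9 on the array labelled control by its single-gene probe set. In all, 33 of the 55 host transcripts were below the floor, between 1.11 and 96.6 on the array labelled PGR siRNA and between 1.48 and 87.1 on the array labelled control, and differences between such values carry no usable size.

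Genes for proteins that work with these RNAs were read by their mRNA. Of 8 listed genes for core proteins of snoRNA particles, 6 had a single-gene probe set. All 6 were higher, from 0.01 for GAR1 to 0.19 for NOP10, with a median of 0.12 and none past 1.5-fold. Over all genes past the floor 53.2% were higher with a median of 0.02. Of 10 assembly factors of these particles none passed 1.5-fold, with a median of 0.02. NOLC1, a chaperone of snoRNA particles, read 6004 on the array labelled PGR siRNA and 4120 on the array labelled control (0.54), and NAF1, needed for H/ACA particles, read 1497 and 2135 in the same order (-0.51). Of 21 protein-coding snoRNA host genes past the floor, which include ribosomal protein genes, 16 (76.2%) were higher and 5 lower. Over all genes past the floor 53.2% were higher, and 56.2% of those with a mean signal over 1000. The list median was 0.11, but it was 0.01 with quantile normalization and 0.01 with a running median subtracted. The extremes of the list were RCC1, the exchange factor for RAN, at 0.36 and RPLP2, a protein of the ribosomal stalk, at -0.76. Only RPLP2 and EP400 (-0.60) passed 1.5-fold, against 4.72% of all genes downward, and with the mean of their probe sets RPLP2 was -0.01 and EP400 was -0.02, while RPS12 was -1.12 in place of 0.25.

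Factors of nonsense-mediated decay and the exon junction had a median of 0.05 over 10 genes, from DCP2 at -0.16 to SMG6 at 0.44. Paraspeckle proteins had a median of 0.03 over 11 genes, from SFPQ at -0.24 to CPSF7 at 0.13, and nuclear speckle proteins one of 0.17 over 13 genes, with 10 higher and 3 lower, from SRSF11 at -0.21 to SRSF5 at 0.43. Over all genes past the floor 53.2% were higher, and 56.2% of those with a mean signal over 1000. By the brightest probe set none of these 3 lists held a gene past 1.5-fold, but with probe sets averaged SMG6 was 2.12, CPSF7 0.80 and SRSF11 -0.60. In the speckle list averaging changed the sign of SRRM1 (to -0.04), SRSF4 (to -0.21) and SRSF6 (to 0.07). The processing of microRNAs was represented by 6 genes with a median of -0.02, from DICER1 at -0.38 to AGO2 at 0.17. With probe sets averaged DICER1 was 0.44, TARBP2 0.89 and AGO1 -0.70, against -0.06 for TARBP2 and 0.00 for AGO1 by the brightest probe set. The averaged list median was 0.13, and that of the paraspeckle list was -0.06, each of opposite sign to the value above. Of 28 protein-coding microRNA host genes 1 was at least 1.5-fold lower, near the background of 4.72%. It was TLN2, a talin, at -0.76. TLN2 read 77.5 (under the signal floor) on the array labelled PGR siRNA and 132 on the array labelled control. The highest of them was HUWE1, a ubiquitin ligase, at 0.39, and the list median was 0.03. With probe sets averaged HUWE1 was -0.71, SREBF2 -0.94 and DNM2 1.14. Polycomb repressive complex 2, which several lncRNAs have been reported to bind, had a median of -0.01 over 9 genes, from EZH2 at -0.24 to EZH1 at 0.30, and none was past 1.5-fold. EZH1 was -0.20 when its probe sets were averaged.

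**Figure D4:**
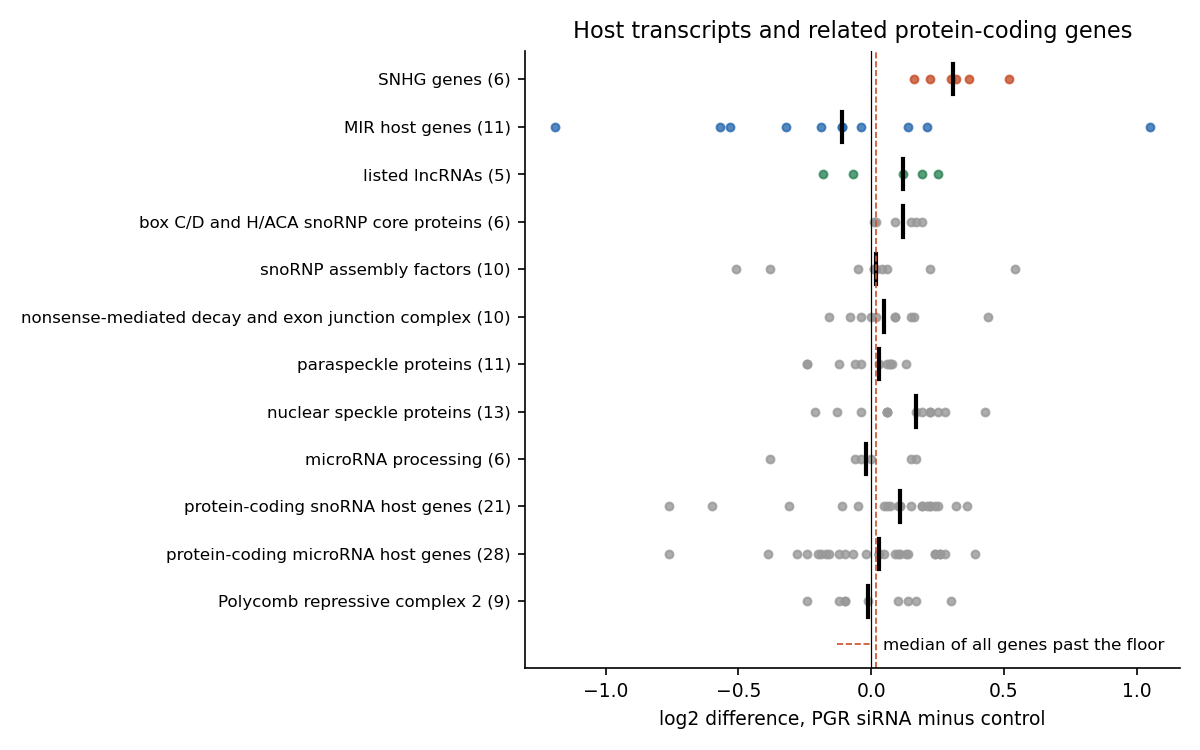
Log2 difference, PGR siRNA label minus control label, for each gene past the floor as a point, by class of host transcript and by list of related proteins, with the number of genes in parentheses, class and list medians as black bars and the median of all genes as a dashed line. The SNHG genes have a median of 0.31 and no point below 0, and the MIR host genes have the widest range, from -1.19 to 1.05.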

How the data were processed

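Biotin-labelled RNA of AsPC-1 cells was hybridised to 3′ expression arrays, a single one for each condition. For each of 54675 probe sets the authors deposited a linear intensity. How probes were summarised was not given in the sources used here. Trimmed means were equal, 500.1 on both arrays, as after scaling to a target. Both columns were mapped by their labels. Depth is not defined for arrays, and their number limits the precision.

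The platform annotation gave 41097 probe sets 1 symbol, 1801 several and 11777 none, and only the first kind was read. By gene identifier 54 of 55 host transcripts matched RefSeq. Host transcripts keep their platform symbol, and other genes carry the current RefSeq symbol where their identifier matched. Differences are on the log2 scale of the deposited intensity plus 1. Promoters, microRNAs and gene content came from RefSeq (GRCh38.p14). Members and lists were chosen with earlier results of these data known. Every host transcript past the floor is named, as are the 10 listed lncRNAs and the ends of each list. Other list genes past 1.5-fold only with averaged probe sets were named after their values were seen. The same holds for the speckle genes whose sign changed. No test was computed.

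Alternatives were the mean of probe sets, median centring, quantile normalization, loess (span 0.7), an offset of 16, other filters, values raised to the floor, a running median over 201 genes, probe sets without a mark for shared sequence, and other folds. The calculation was tested on simulated data. Calculations ran in Python 3.11.15 with pandas 2.3.3 and numpy 2.4.6, loess came from statsmodels 0.14.6, and plots were drawn in matplotlib 3.10.9.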

Additional observations from a re-analysis of the deposited data

How the results depend on the processing

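All SNHG genes past the filter were higher on the array labelled PGR siRNA in each setting with a signal filter. With no filter 8 of 11 were higher. The median of SNHG genes ran from 0.26 to 0.38 over the settings with single-gene probe sets. It was 0.23 in shared probe sets that listed snoRNA or scaRNA genes. The median of MIR host genes ran from -0.27 to -0.06 over the settings with single-gene probe sets, and it was 0.09 in shared probe sets that listed microRNA genes only. The median of all 22 host transcripts past the floor was 0.13 by the reading used above. Of them 12 were higher and 10 lower, or 54.5% higher, against 53.2% of all genes. Over the settings this median ran from -0.11 to 0.22. It was -0.07 with probe sets averaged per gene, -0.11 without a filter and -0.04 without probe sets marked for shared sequence. That of listed lncRNAs was -0.08 with the mean of probe sets and -0.07 without marked ones. The number of host transcripts at least 1.5-fold higher was 0 with the mean of probe sets, the filter at the 75th percentile, both arrays at the floor, values raised to the floor, or a fold of 3. It was 2 with median centring, quantile normalization or the filter at the level of olfactory receptors, where SNHG4 joined MIR4435-2HG, and 8 with no filter or 3 by probe set. The number at least 1.5-fold lower was 0 with the filter at the 75th percentile, both arrays at the floor or a fold of 3. It was 11 with no filter and 5 by probe set. The counts by probe set are of 45 host probe sets past the floor. Among all 21528 named probe sets past it, 993 passed 1.5-fold upward and 1337 downward. With no filter 14% of all genes were past 1.5-fold higher and 16.6% lower. Over the other settings by gene, the share of all genes past the fold ran from 0.448% to 5.45% higher. Downward it ran from 0.646% to 6.61%. With the mean of probe sets the gene past 1.5-fold lower was MIRLET7BHG in place of MIR9-1HG. MIR210HG was -0.20 and TUG1 -0.09 in that setting, and DLEU2 was -0.49 without marked probe sets. The cause of these changes was not tested, apart from the fewer or additional genes that each filter keeps. Median centring moved the median of all genes to 0.07. No paired analysis was possible because each condition has a single array.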
